A study of Homo sapiens with 16 samples.

Results

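The genes described here are 39 interferon-stimulated genes, a set whose transcription is switched on when interferon binds its receptor. They were taken by gene name from the deposited gene abundance tables of 16 libraries, which list 39550 gene names. All 39 were among the 15958 genes that were tested, those at 1 TPM or more in at least 2 libraries; TPM is transcript abundance corrected for length and scaled to the same sum in every library. The cells were A549, a human lung adenocarcinoma line, made to overexpress CD63-Nluc, in which a luciferase reporter is joined to CD63, a tetraspanin found on exosomes. Every group carried this fusion, the controls included. The promoter that drove it, and whether the cells were 1 clone, are not given in the sources used here. Cells received the compound 5G6, 6D7 or 7F8, known here only by these code names, or the solvent DMSO. The labels give 4 µM for each treatment, also for DMSO. The 8 groups were 5G6, 6D7, 7F8 and DMSO at 4 h, and 5G6, 6D7, 7F8 and DMSO at 48 h, with 2 libraries each that the series describes as biological replicates. The title of the series concerns exosome release and the AMPK and SREBP pathway, so that the interferon response lies beside its stated subject.

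Type I and type III interferons bind receptors that activate the kinases JAK1 and TYK2. These phosphorylate STAT proteins, among them STAT2, which joins IRF9 in a complex named ISGF3 that binds interferon-stimulated response elements (ISRE) in the promoters of the target genes. In airway epithelium the products form an early defence against viruses, at entry, in RNA sensing, in translation and in virus assembly, and several of them feed back on the signal.

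The ISRE is the sequence by which these genes are known, so stretches of 6 promoters are shown, from genes that differed widely in how they varied between libraries. They come from RefSeq windows of the 250 bases before the transcription start, build GRCh38.p14, and run 5′ to 3′ on the strand of the gene. Capitals mark matches to the ISRE core, which is GAAA, any 2 bases and GAAA again, on either strand. Adjacent matches may overlap.
ISG15 (chr1:1013364-1013419, plus strand): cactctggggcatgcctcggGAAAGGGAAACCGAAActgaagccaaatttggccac
IFIT1 (chr10:89392487-89392545, plus strand): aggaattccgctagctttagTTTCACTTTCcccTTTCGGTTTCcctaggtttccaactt
IFITM1 (chr11:313980-314029, plus strand): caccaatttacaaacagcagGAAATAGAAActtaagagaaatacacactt
BST2 (chr19:17405725-17405780, minus strand): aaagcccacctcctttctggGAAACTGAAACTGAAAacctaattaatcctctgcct
IFI6 (chr1:27672256-27672368, minus strand): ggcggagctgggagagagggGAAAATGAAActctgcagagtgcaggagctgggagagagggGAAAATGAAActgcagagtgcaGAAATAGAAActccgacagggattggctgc
IFI27 (chr14:94110608-94110670, plus strand): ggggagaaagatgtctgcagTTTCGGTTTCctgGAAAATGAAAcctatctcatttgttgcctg

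Windows were found for 33 of the 39 genes; those of IRF7, USP18, OAS2, OASL, IFIT2 and IFITM2 were not used here. The ISRE core was present in 22 of the 33 windows (66.67%), against 3.714% of the 27305 gene symbols with a window. A longer form, the core followed by C, always overlaps a match to the core and was present in 18 (54.55%, against 0.7728% of all). The palindrome TTCNNNGAA, the core of the gamma-activated sequence, was present in 10 (30.3%, against 8.086% of all). Both strands were searched. A match describes the letters of the window and was not tested as a binding site.

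The libraries held 6.10 to 8.86 gigabases of aligned sequence, read from the ratio of coverage to FPKM, and 13378 to 14909 genes at 1 TPM or more. Mitochondrial genes took 6.13% and 6.48% of TPM in the libraries of 6D7 at 48 h and 18.9% to 32.5% in the other 14 libraries. They were therefore dropped and the remaining TPM rescaled to the same sum in every library. The epithelial keratins KRT8, KRT18 and KRT7 were high throughout, at 719 to 3427 TPM, while EPCAM was low for an epithelial marker, at 0.375 to 11.4 TPM. Among leukocyte markers PTPRC did not exceed 0.0967 TPM, CD3E 0.0667 TPM and LYZ 0.63 TPM, while CD14 was at 1.58 to 11.3 TPM, ITGAX at 0.345 to 11.2 TPM and CD68 at 23.9 to 339 TPM. The fibroblast genes COL1A2 and DCN were listed at 0 in all 16 libraries. In RNA from whole cultures, fewer expressing cells and less RNA per cell cannot be told apart.

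The 39 genes spanned a wide range of levels. ISG15, which encodes a ubiquitin-like modifier, was at 296 to 3055 TPM. IFI6, an interferon-induced mitochondrial and endoplasmic reticulum protein, was at 68.2 to 1392 TPM. At the low end EPSTI1, an interferon-induced epithelial-stromal protein, was at 0.104 to 3.29 TPM, and IFI44L at 0.0639 to 5.92 TPM. The sum over the 39 genes was 4181 to 10921 TPM in the 8 libraries numbered replicate 1 and 1486 to 3873 TPM in the 8 numbered replicate 2, so that the replicate numbers did not overlap in this sum.

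**Figure D1:**
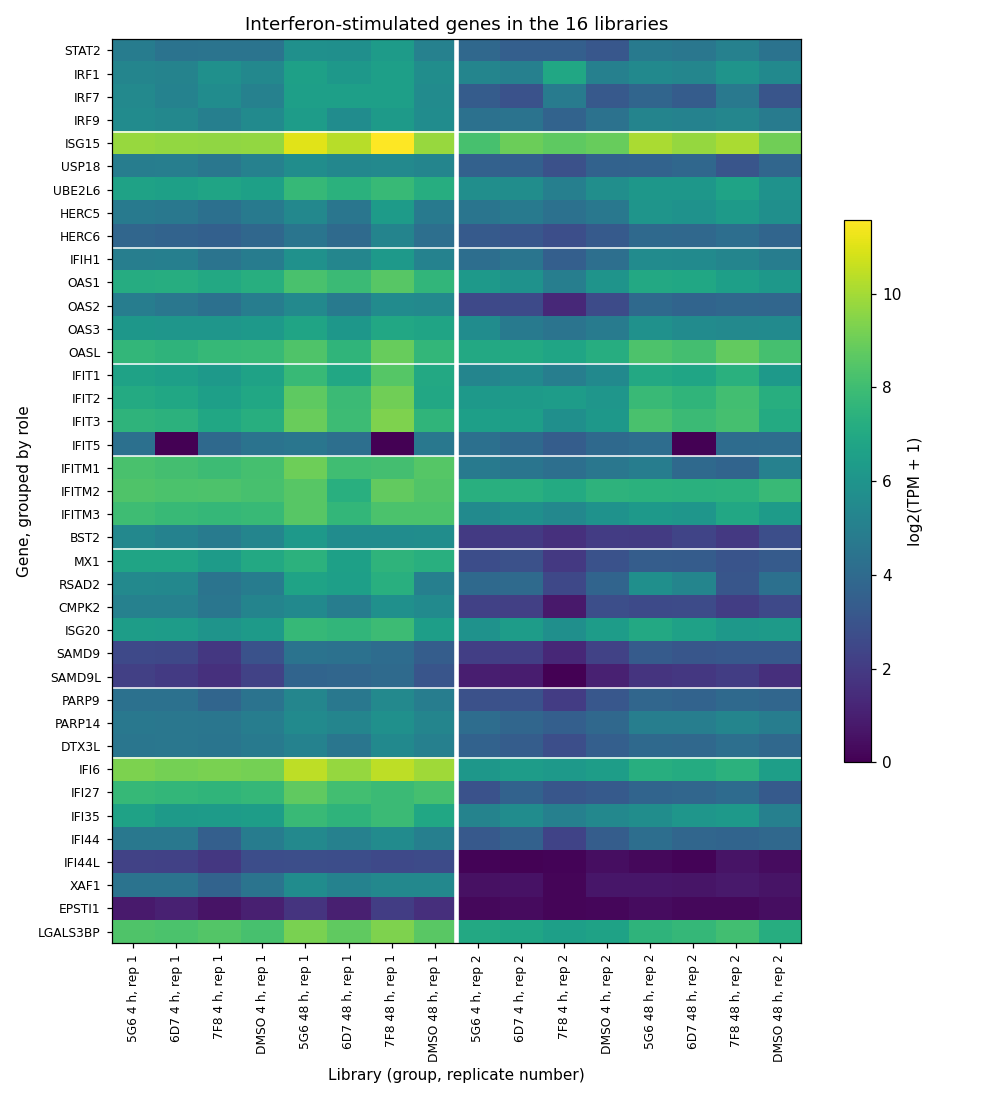
Level of the 39 genes on the log2(TPM + 1) scale (colour), by library (columns) and gene grouped by role (rows). Replicate 1 is brighter than replicate 2 in every group for 31 of the 39 genes, and 32 of the 39 are higher in DMSO at 48 h than in DMSO at 4 h within both numbers.

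The widest split among these genes lay between the replicate numbers, within every group. In 31 of the 39 the replicate 1 library was above the replicate 2 library in all 8 groups, while this held for 5.23% of all tested genes. None of the 39 was lower in all 8 groups, where 6.95% of all tested genes were. The median difference, replicate 1 minus replicate 2 averaged over the groups, was 1.23 on the log2(TPM + 1) scale for the 39 genes and -0.03 for all tested genes. For 18 of them every replicate 1 library was above every replicate 2 library, as for 117 of all tested genes. The rule that chose these genes already mentions this split, so it is a description, given without a test. The meaning of the numbers beyond replicates (a day, a passage, a batch) is not stated in the labels.

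The widest split was that of IFI27, a mitochondrial protein used as a marker of the interferon response (chr14:94110736-94116690). IFI27 was at 192 to 434 TPM in replicate 1 and at 6.46 to 15.6 TPM in replicate 2, a mean difference of 4.48. XAF1, which binds and antagonises the apoptosis inhibitor XIAP, was at 11.8 to 48.4 TPM in replicate 1 and 0.104 to 0.741 TPM in replicate 2 (mean difference 4.22). MX1, a dynamin-like GTPase that blocks influenza virus (chr21:41420329-41459214), was at 81.7 to 187 TPM in replicate 1 and 2.74 to 9.8 TPM in replicate 2 (4.03). In these 3 genes every replicate 1 library was above every replicate 2 library, whatever the treatment. IFITM1 (3.80), BST2 (3.40), IFI6 (2.98) and CMPK2 (2.97) followed.

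Other members had small mean differences. HERC5, the ligase that attaches ISG15 to new proteins, had a mean difference of -0.37, OASL 0.21, IRF1 0.27 and IFIH1 0.52. By role, the median difference was 2.69 in the 4 membrane proteins, 1.85 in the 8 proteins of other roles, 1.597 in the 6 GTPases, nucleotide enzymes and nucleases, and 0.67 in the 4 genes of the IFIT family. Members with the ISRE core in the promoter had a median difference of 1.23 (22 genes) and those without it also 1.23 (11 genes). With the longer form these medians were 1.06 (18 genes) and 1.41 (15 genes), and with the gamma-activated core 1.43 (10 genes) and 1.16 (23 genes), without a test.

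The same split was counted in other genes of the pathway. Of 48 further interferon-induced genes (antigen presentation, guanylate-binding proteins, TRIM proteins, chemokines), 36 were higher in replicate 1 in all 8 groups, with a median difference of 0.93. None of 6 interferon ligands, 6 receptor chains or 8 kinases, STATs and inhibitors of signalling was, and 5 of 16 nucleic acid sensors and adaptors were. The ligand median was -0.03 and the receptor median -0.19. The summed leukocyte and fibroblast markers were also higher in replicate 1 in all 8 groups. The leukocyte sum, mostly CD68, was at 58.6 to 352 TPM in replicate 1 and 27.5 to 161 TPM in replicate 2. The fibroblast sum, nearly all COL1A1, was at 4.88 to 20.9 TPM in replicate 1 and 2.82 to 5.88 TPM in replicate 2. Their part in the interferon genes was not tested.

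**Figure D2:**
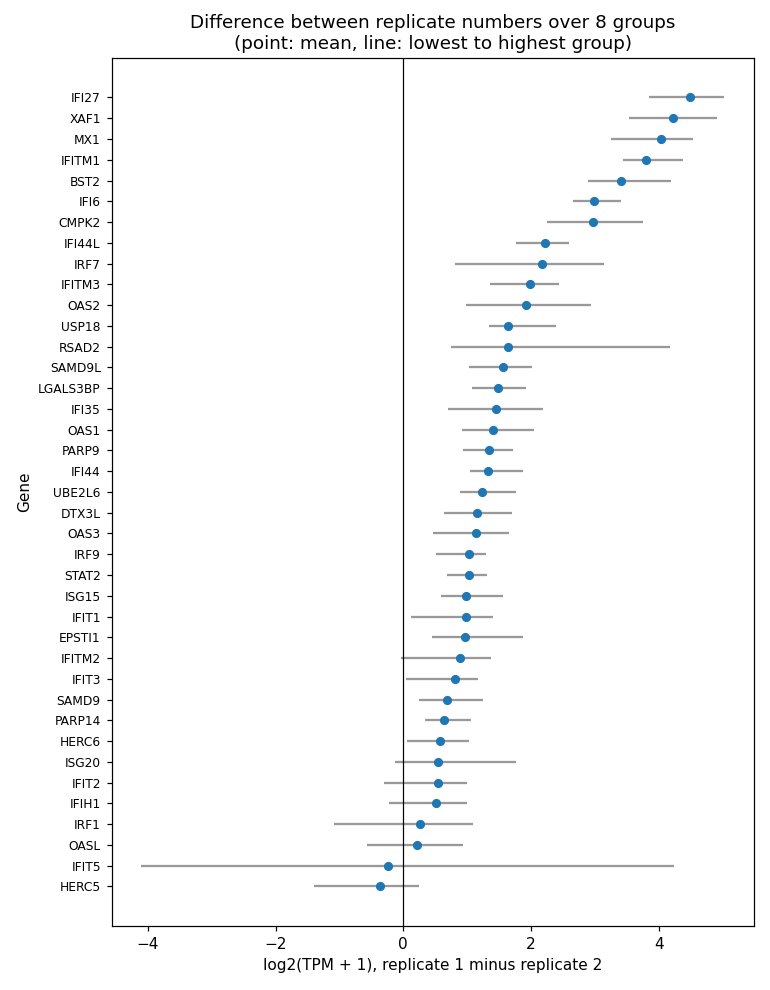
Replicate 1 minus replicate 2 on the log2(TPM + 1) scale (horizontal axis) for each of the 39 genes (rows). Points are means over the 8 groups and lines run from the lowest to the highest group. IFI27, XAF1 and MX1 lie at 4.48, 4.22 and 4.03, and HERC5 at -0.37.

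This split sets the spread against which the compounds were tested. The standard error of a comparison between groups of 2 was 2.62 on the log2 scale for IFI27, 2.36 for MX1 and 2.00 for BST2, but 0.415 for IFIT2 and 0.347 for OASL. Calls are at an adjusted p below 0.05 in limma with Benjamini-Hochberg adjustment over all 15958 genes. A p above the threshold does not show that a gene did not differ. Each compound is therefore also set against DMSO within a replicate number, 1 library against 1, as a description without a test.

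At 4 h none of the 39 genes was called for any compound, nor was any of the 15958 tested genes (0% in each comparison, limma). Without adjustment, the p was below 0.05 for 0 of the 39 with 5G6, 0 with 6D7 and 1 with 7F8 (3.25%, 1.13% and 5.43% of all tested genes). The median log2 fold change of the 39 was -0.03 with 5G6, -0.08 with 6D7 and -0.41 with 7F8, and that of all tested genes 0.11, 0.01 and -0.11. Single libraries turn the direction of these medians, which ran from -0.55 to 0.60, -0.67 to 0.57 and -1.14 to 0.36 with 1 library left out. With 7F8 the median was 0.36 without 7F8 replicate 2 and 0.14 without DMSO replicate 1. Leaving out 1 library leaves a group with 1 replicate number, so the split between the numbers enters these medians. Within replicate numbers, 7F8 was below DMSO in both for 31 of the 39 genes (42.4% of all tested genes) and above it in both for 2 (19.1% of all). With 5G6, 8 genes were above DMSO in both numbers and 11 below (35.7% and 16.4% of all). With 6D7 these counts were 6 and 21 (29.9% and 25.6% of all). With median-of-ratios scaling 7F8 was below DMSO in both numbers for 26 of the 39. The share of 42.4% belongs to the reported scaling and does not apply to that count. With median-of-ratios scaling the 7F8 median of the 39 was -0.30, and that of all tested genes -0.02. Both libraries of a group lay above both DMSO libraries in 0 of the 39 for 5G6, 0 for 6D7 and 1 for 7F8 (22.6%, 12.5% and 10.1% of all tested genes). They lay below both in 0, 0 and 4 (7.90%, 9.49% and 23.4% of all). Neither can occur in the 18 genes whose replicate 1 libraries all lay above all replicate 2 libraries (117 of all tested genes). These counts and shares are therefore not on equal terms.

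The gene that stood out at 4 h was IRF1, a transcription factor induced within hours by interferon and by inflammatory signals (chr5:132481609-132490789). IRF1 was at 54.9 and 118 TPM with 7F8 at 4 h, against 41.9 and 32.1 TPM with DMSO. Both 7F8 libraries were above both DMSO libraries, and replicate 2 of 7F8 was the highest of all 16. The log2 fold change was 1.11 (SE 0.42), with an unadjusted p of 0.0203 and an adjusted p of 0.847 in limma.

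IRF7, the factor that amplifies type I interferon production (chr11:612551-615999), was at 48.3 and 27.2 TPM with 7F8 at 4 h, against 32.6 and 8.36 TPM with DMSO. The libraries of the same number differed in the same direction, but the groups overlapped (log2 fold change 1.07, SE 1.33, limma adjusted p = 1). SAMD9, an antiviral factor against poxviruses, was at 2.64 and 1.47 TPM with 7F8, against 6.44 and 3.86 TPM with DMSO, and IFI44 at 10.3 and 4.05 TPM, against 28.5 and 9.53 TPM. SAMD9 and IFI44 were chosen after their values were seen, and neither was called. IRF1 and IRF7 were the 2 genes above DMSO in both replicate numbers, while the effector genes below it included all 6 GTPases, nucleotide enzymes and nucleases and all 5 genes of RNA sensing and 2-5A synthesis.

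At 48 h the test called IFIT2 with 7F8, and none of the other 38 genes with any compound. That is 1 of 39 called higher, where 8.79% of all tested genes were called with 7F8, 2.29% higher and 6.50% lower. With 5G6 0 of 39 were called, where 4.06% of all tested genes were, 1.95% higher and 2.11% lower. With 6D7 0 of 39 were called, where 5.97% were, 2.39% higher and 3.58% lower. These counts differ with a replicate block, as given in the closing section. Unadjusted p values below 0.05 were found for 5 of the 39 with 7F8, 2 with 5G6 and 0 with 6D7, and for 24.6%, 19.0% and 21.5% of all tested genes. Both libraries lay above both DMSO libraries in 9 of the 39 with 7F8, 7 with 5G6 and 5 with 6D7 (16.7%, 20% and 20.7% of all tested genes), and below both in 1, 0 and 1 (38.7%, 28.7% and 27.1% of all). Neither can occur in the 18 genes whose replicate 1 libraries all lay above all replicate 2 libraries (117 of all tested genes). These counts and shares are therefore not on equal terms.

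IFIT2 encodes a tetratricopeptide-repeat protein that restrains translation of viral RNA (chr10:89302046-89309271). IFIT2 was at 540.4 and 269 TPM with 7F8 at 48 h (404.7 ± 192, SD, n = 2), against 122 and 150.3 TPM with DMSO (136 ± 20.2). With 5G6 it was at 419.9 and 226 TPM, and with 6D7 at 240.1 and 192 TPM. All 6 libraries of the compounds at 48 h were above both DMSO libraries of that hour. The log2 fold change with 7F8 was 1.49 (SE 0.415, limma adjusted p = 0.0458). The adjusted p was above the threshold without 7F8 replicate 1 (0.351), without either DMSO library (0.21 and 0.119), and in 3 other settings given in the closing section. With 5G6 it was 1.18 (SE 0.415, limma adjusted p = 0.141) and with 6D7 0.66 (adjusted p = 0.392), both not called. A difference of the 7F8 effect between 48 h and 4 h was not called for IFIT2 (1.49, SE 0.59, limma adjusted p = 0.487). At 4 h IFIT2 was at 92.3 and 82.9 TPM with 7F8, against 117 and 65.8 TPM with DMSO.

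The other IFIT genes that were measured in all libraries also had higher means with each compound at 48 h than with DMSO. For IFIT1 with 6D7 this did not hold within replicate 1. IFIT1, which binds viral RNA that lacks a methylated cap (chr10:89392546-89406487), was at 369.8 and 164 TPM with 7F8 at 48 h, 223 and 126 TPM with 5G6 and 122 and 112 TPM with 6D7, against 127 and 73.1 TPM with DMSO. Both 7F8 libraries were above both DMSO libraries, while 5G6 and 6D7 overlapped DMSO. The log2 fold change of IFIT1 was 1.34 with 7F8 (SE 0.62, limma adjusted p = 0.208), 0.79 with 5G6 (0.553) and 0.28 with 6D7 (0.85). IFIT3, the partner that stabilises IFIT1, was at 637 and 283 TPM with 7F8, 479.9 and 301 TPM with 5G6 and 247 and 240.1 TPM with 6D7, against 189.7 and 134 TPM with DMSO. In IFIT3 all 6 compound libraries were above both DMSO libraries (limma adjusted p = 0.123, 0.224 and 0.561). IFIT5 was listed at 0 in 3 libraries, among them replicate 1 of 7F8 and replicate 2 of 6D7 at 48 h, and at 9.83 to 23.6 TPM in the other 13. No fold change is given for IFIT5, which stays in the counts and medians over the 39. These genes are neighbours on chromosome 10 with similar sequences, and how the authors' counting split shared reads is not stated.

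ISG15 was at 3055 and 1114 TPM with 7F8 at 48 h, 2158 and 1101 TPM with 5G6 and 1295 and 864 TPM with 6D7, against 896 and 528 TPM with DMSO. Both libraries of 7F8 and of 5G6 were above both DMSO libraries, and those of 6D7 overlapped them. The log2 fold change was 1.42 with 7F8 (SE 0.61, limma adjusted p = 0.175), 1.16 with 5G6 (0.336) and 0.62 with 6D7 (0.617). USP18 is the protease that removes ISG15 and dampens receptor signalling. USP18 was at 42.8 and 7.37 TPM with 7F8, 50.4 and 11.96 TPM with 5G6 and 39.4 and 13.8 TPM with 6D7, against 37.2 and 13.2 TPM with DMSO (log2 fold changes -0.28, 0.15 and 0.07, limma adjusted p of 0.901 and above). The replicate numbers of USP18 went opposite ways with 7F8, 0.20 in number 1 and -0.76 in number 2. HERC5 was at 79.9 and 79.5 TPM with 7F8, against 25.9 and 54.2 TPM with DMSO (log2 fold change 1.06, SE 0.41, limma adjusted p = 0.134). HERC5 and IFIT3 were chosen after their values were seen.

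Among the transcription factors, all 4 were above DMSO in both replicate numbers with 7F8 at 48 h (24.6% of all tested genes were). With 5G6 and with 6D7 3 of the 4 were (33.2% and 30.6% of all). STAT2 was at 80.0 and 33.5 TPM with 7F8, 54.9 and 26.1 TPM with 5G6 and 53.2 and 23.0 TPM with 6D7, against 32.7 and 20.002 TPM with DMSO. Both 7F8 libraries of STAT2 were above both DMSO libraries (log2 fold change 0.99, SE 0.62, limma adjusted p = 0.366). IRF9 was at 77.4 and 39.1 TPM with 7F8, 83.4 and 36.9 TPM with 5G6 and 48.8 and 33.9 TPM with 6D7, against 48.1 and 27.3 TPM with DMSO. The groups of IRF9 overlapped with each compound (log2 fold changes 0.59, 0.60 and 0.16). IRF7 was at 92.8 and 24.4 TPM with 7F8, 93.1 and 12.5 TPM with 5G6 and 90.8 and 9.39 TPM with 6D7, against 46.9 and 7.32 TPM with DMSO, and IRF1 at 92.1 and 63.3, 94.4 and 43.7, and 71.9 and 38.7 TPM, against 49.9 and 44.2 TPM. None was called (lowest limma adjusted p of 0.342, for IRF1 with 7F8).

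OAS1, which makes the 2-5A messenger that activates RNase L (chr12:112906777-112932190), was at 376 and 91.4 TPM with 7F8 at 48 h, 301 and 125 TPM with 5G6 and 234 and 117 TPM with 6D7, against 198 and 70.7 TPM with DMSO. Within each number every compound was above DMSO, and the groups overlapped (log2 fold changes 0.64, 0.71 and 0.48, limma adjusted p of 0.699 and above). OASL, a relative without synthase activity, was at 477 and 448 TPM with 7F8, 332 and 327 TPM with 5G6 and 190.0 and 281 TPM with 6D7, against 201 and 289.8 TPM with DMSO. Both libraries of 7F8 and of 5G6 were above both of DMSO, and those of 6D7 were below it within each number (log2 fold changes 0.94, 0.45 and -0.06, limma adjusted p = 0.119, 0.547 and 0.945). OASL was chosen after its values were seen.

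At 48 h the antiviral effectors MX1, RSAD2 and IFI27 were each above DMSO within both replicate numbers with 5G6 (33.2% of all tested genes were). With 7F8 and with 6D7 they had no common direction. MX1 was at 187 and 7.15 TPM with 7F8 at 48 h, 174 and 9.8 TPM with 5G6 and 96.0 and 9.25 TPM with 6D7, against 157 and 8.88 TPM with DMSO. The log2 fold changes of MX1 were -0.01, 0.14 and -0.32, each with an SE of 2.36. RSAD2 (viperin), which makes a chain-terminating nucleotide, was at 156 and 7.68 TPM with 7F8, 105 and 53.9 TPM with 5G6 and 90.6 and 37.3 TPM with 6D7, against 31.4 and 18.4 TPM with DMSO. With 7F8 the 2 replicate numbers of RSAD2 went opposite ways, by 2.28 and -1.16, while with 5G6 both compound libraries were above both DMSO libraries, as with 6D7. RSAD2 was chosen after its values were seen. It overlaps CMPK2 on the other strand, and PARP9 overlaps DTX3L; the strandedness of the libraries is not stated, so reads from the overlaps cannot be told apart. IFI27 was at 237 and 15.6 TPM with 7F8, 434 and 12.4 TPM with 5G6 and 271 and 13.0 TPM with 6D7, against 287 and 8.77 TPM with DMSO.

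The membrane proteins that block virus entry or release had medians below 0 at 48 h, and none was called with any compound. BST2 (tetherin), which holds budding virus particles at the cell surface and has also been described on exosomes (chr19:17402939-17405630), was at 49.0 and 2.76 TPM with 7F8 at 48 h, 73.5 and 3.09 TPM with 5G6 and 48.7 and 4.13 TPM with 6D7, against 50.3 and 5.9 TPM with DMSO. In replicate 2 all 3 compounds were below DMSO, and in replicate 1 5G6 was above it. IFITM3, which blocks fusion in late endosomes (chr11:319673-320914), was at 318 and 124 TPM with 7F8, 373 and 75.5 TPM with 5G6 and 204 and 67.7 TPM with 6D7, against 316 and 80.3 TPM with DMSO (log2 fold changes 0.31, 0.07 and -0.44, each with an SE of 1.18). With 6D7, all 4 of IFITM1, IFITM2, IFITM3 and BST2 were below DMSO in both numbers (41.3% of all tested genes were), with a median log2 fold change of -0.63. That count was 3 with median-of-ratios scaling and 2 with mitochondrial genes kept (medians -0.54 and -0.21). The share of 41.3% belongs to the reported scaling and does not apply to these 2 counts. The 6D7 median of all tested genes was -0.06 as reported and 0.01 with median-of-ratios scaling. With median-of-ratios scaling the 5G6 median of the 4 turned to 0.07. The IFITM genes are neighbours with similar sequences, so reads may be shared and their separate values are uncertain.

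**Figure D3:**
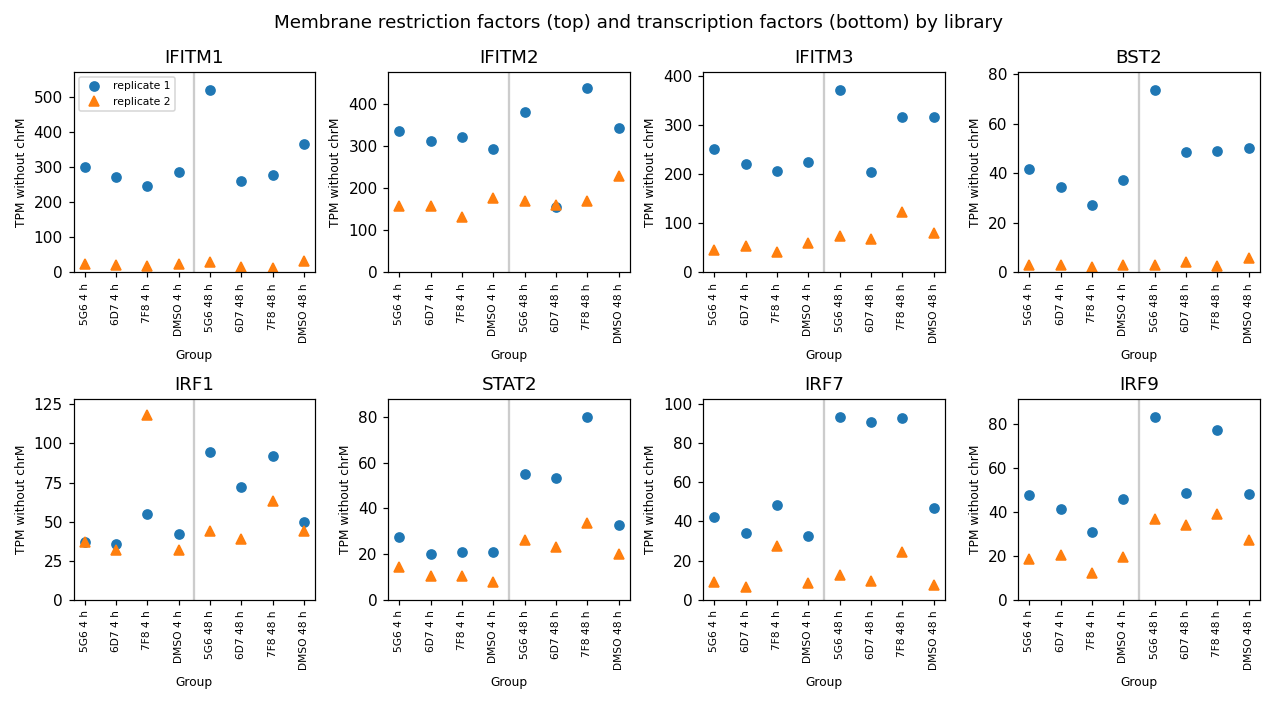
TPM without mitochondrial genes (vertical axes, linear) of 4 membrane proteins (top) and 4 transcription factors (bottom) in each library, by group (horizontal axes) and replicate number (circles, 1; triangles, 2). IFITM1 and BST2 separate by number in every group, and IRF1 has its highest value, 118 TPM, in replicate 2 of 7F8 at 4 h.

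None of the remaining members was called, and those described here were picked after their values were seen. LGALS3BP, a secreted glycoprotein, was at 648 and 271 TPM with 7F8, 613 and 183 TPM with 5G6 and 435 and 206 TPM with 6D7, against 387 and 146 TPM with DMSO. Each compound was above DMSO within both numbers, and the groups overlapped. ISG20, an exonuclease that degrades viral RNA, was at 242 and 70.7 TPM with 7F8, 218 and 125 TPM with 5G6 and 196 and 97.3 TPM with 6D7, against 88.9 and 77.6 TPM with DMSO. Both libraries of 5G6 and of 6D7 were above both DMSO libraries of ISG20, while replicate 2 of 7F8 was below them. IFIH1 (MDA5), a sensor of long double-stranded RNA, was at 75.8 and 37.8 TPM with 7F8, 57.6 and 47.4 TPM with 5G6 and 38.5 and 45.1 TPM with 6D7, and all 6 were above its DMSO libraries at 33.7 and 29.0 TPM. The log2 fold changes with 7F8 were 1.09 for IFI35, 0.74 for SAMD9L, 0.72 for HERC6 and 0.69 for the ISG15-conjugating enzyme UBE2L6. They were 0.44 for PARP14, 0.38 for DTX3L and 0.33 for PARP9, and each of these 7 genes was above DMSO in both numbers. OAS2 and OAS3, relatives of OAS1, had 0.10 and 0.05, and CMPK2, a nucleotide kinase, -0.10.

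Over all 39 genes, the median log2 fold change at 48 h was 0.44 with 5G6, 0.07 with 6D7 and 0.56 with 7F8, beside -0.07, -0.06 and -0.18 for all tested genes. Within replicate numbers, 5G6 was above DMSO in both for 29 of the 39 and below in both for 0 (33.2% and 44.6% of all tested genes). With 7F8, 25 were above in both and 3 below, namely BST2, IFITM1 and IFIT5 (24.6% and 51.7% of all). With 6D7, 16 were above in both and 9 below (30.6% and 41.3% of all). Median-of-ratios scaling moves the median of all genes with 7F8 by 0.18, and the median of the 39 was then 0.51 with 5G6, 0.15 with 6D7 and 0.77 with 7F8. With mitochondrial genes kept, the 6D7 median was 0.46 while that of all tested genes was 0.28, so the size of the 6D7 median rests on the scaling. The 6D7 median of the 39 was above that of all tested genes under each of these scalings. Single libraries also turn the direction of these medians: without 7F8 replicate 1 the 7F8 median was -0.26, and without DMSO replicate 2 it was -0.01. The 5G6 median was -0.30 without 5G6 replicate 1 and -0.27 without DMSO replicate 2, and the 6D7 median -0.46 without 6D7 replicate 1 and -0.48 without DMSO replicate 2. Without replicate 2 of the compound or replicate 1 of DMSO they were 1.25 and 0.99 (7F8), 1.20 and 1.03 (5G6), and 0.81 and 0.78 (6D7). Leaving out 1 library leaves a group with 1 replicate number. The split between the numbers (median 1.23) then enters these medians and cannot be told apart from the compound there.

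By role, the IFIT family had the highest median at 48 h with 7F8 and with 5G6, 1.38 and 0.99, followed by the transcription factors at 0.84 and 0.58. ISG15 and its conjugation enzymes had medians of 0.72 and 0.36, RNA sensing and 2-5A synthesis 0.64 and 0.45, and the PARP9 and DTX3L complex 0.38 and 0.13. The GTPases, nucleotide enzymes and nucleases had 0.44 and 0.50, and the proteins of other roles 0.24 and 0.43. With 6D7 the GTPases, nucleotide enzymes and nucleases had the highest median, 0.47, and the IFIT family had 0.44. The membrane proteins had medians of -0.25 with 7F8 and -0.02 with 5G6. These medians describe the groups and were not tested against each other.

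**Figure D4:**
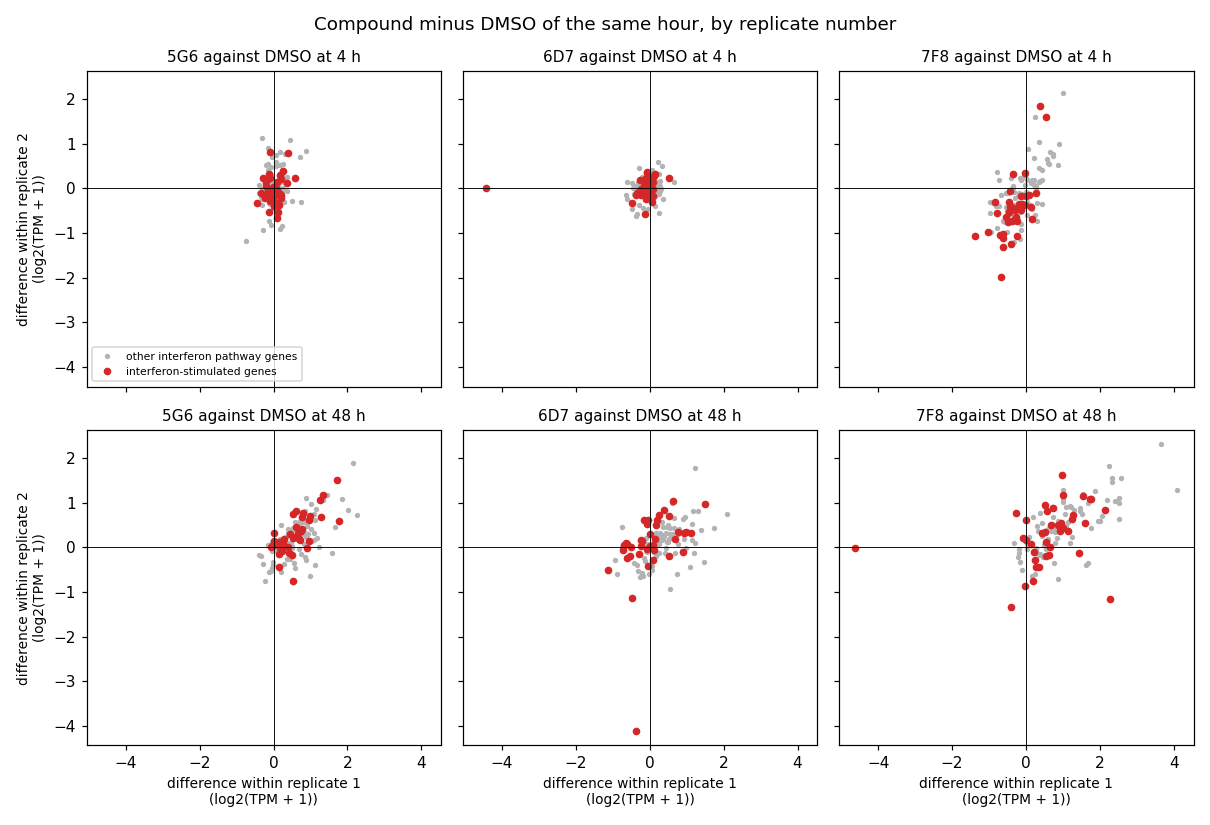
Compound minus DMSO of the same hour on the log2(TPM + 1) scale, within replicate number 1 (horizontal axes) and number 2 (vertical axes), for the 39 genes in each comparison. At 48 h 29 genes with 5G6 and 25 with 7F8 lie above 0 on both axes, and at 4 h 31 genes with 7F8 lie below 0 on both; IFIT5, listed at 0 in 3 libraries, gives the far points.

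The effect of 7F8 on these genes was higher at 48 h than at 4 h in most members within both numbers, and the test called none. The effect at 48 h minus that at 4 h was above 0 within both numbers for 31 of the 39 genes and below 0 for 1, IFITM1 (25.9% and 37.9% of all tested genes). Its median was 0.95 for the 39 and -0.08 for all tested genes. With 1 library left out the median of the 39 ran from 0.19, without 7F8 replicate 2 at 4 h, to 1.78, without 7F8 replicate 2 at 48 h. The split between the replicate numbers enters these medians too. In limma 0 of 39 were called, where 0.00627% of all tested genes were, and 5 had an unadjusted p below 0.05 (8.67% of all). For 5G6 the counts were 28 and 1 (21.6% and 46.9% of all) and for 6D7 19 and 5 (25.9% and 38.9% of all), again with 0 of 39 called, where 0% of all tested genes were, and 0 with an unadjusted p below 0.05. For IFIT1 the difference was 1.84 (SE 0.88, limma adjusted p = 0.599) with 7F8.

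The DMSO libraries at 48 h lay mostly above those at 4 h. DMSO at 48 h was above DMSO at 4 h in both numbers for 32 of the 39 genes and below in both for 1, IFI44L (39.9% and 12.2% of all tested genes). The median was 0.42, with 0.17 for all tested genes. It was -0.13 without replicate 1 at 48 h and -0.21 without replicate 2 at 4 h, so that single libraries turn its direction. A group is then left with 1 replicate number, and the split between the numbers enters these medians. None of the 39 was called, nor any other gene (0%, limma), and 0 of the 39 had an unadjusted p below 0.05. Both DMSO libraries at 48 h were above both at 4 h in 6 of the 39 genes and below both in 0 (28.6% and 7.16% of all). Neither can occur in the 18 genes whose replicate 1 libraries all lay above all replicate 2 libraries. IFIT1 was at 127 and 73.1 TPM in DMSO at 48 h, against 102 and 43.8 TPM in DMSO at 4 h.

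Between the compounds, which were given at the same labelled dose, none of the 39 genes was called in any of the 6 comparisons. At 48 h 6D7 was below 7F8 within both numbers for 23 of the 39 genes and above it for 0 (19.6% and 41.3% of all tested genes), with 0 of 39 called where 0.489% of all were and 2 at an unadjusted p below 0.05 (12.7% of all). Those 2 were OASL, with a log2 difference of -0.999 (SE 0.347, limma adjusted p = 0.248), and HERC5, with -1.11 (SE 0.41, limma adjusted p = 0.285). For IFIT2 the difference was -0.83 (SE 0.415, limma adjusted p = 0.452). At 48 h 5G6 was above 6D7 in both numbers for 31 of the 39 and below for 1 (28.3% and 25.4% of all), and above 7F8 for 5 and below for 14 (45.4% and 21.0% of all). None was called in either, where 0.00627% and 0.288% of all tested genes were, and 0 had an unadjusted p below 0.05 in either. At 4 h 0 of 39 were called between any pair, where 0% to 0.00627% of all tested genes were. The unadjusted p was then below 0.05 for IRF1 with 5G6 against 7F8 and with 6D7 against 7F8, and for none with 5G6 against 6D7. Within both numbers at 4 h, 5G6 was above 6D7 for 16 of the 39 and below for 2 (34.2% and 15.1% of all tested genes), and above 7F8 for 29 and below for 2 (50.5% and 12.6% of all). At 4 h 6D7 was above 7F8 for 27 and below for 2 (46.6% and 17.8% of all). The 3 compounds share their DMSO libraries, so their changes against DMSO are not independent of each other.

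Upstream of the 39 genes, interferon ligands were higher with 7F8 at 48 h. Of the 9 ligand genes listed 6 were tested, and 4 of the 6 were called higher (2.29% of all tested genes were). IFNB1, the type I interferon of epithelial cells, rose to 34.1 and 18.8 TPM with 7F8 at 48 h, against 5.13 and 8.12 TPM with DMSO. Both 7F8 libraries were above both DMSO libraries, and the log2 fold change was 1.82 (SE 0.36, limma adjusted p = 0.0129). The type III interferon genes IFNL3 and IFNL2, near-identical copies whose reads may be shared, were at 55.6 and 62.9 TPM and at 58.1 and 75.6 TPM with 7F8. With DMSO IFNL3 was at 10.9 and 17.2 TPM and IFNL2 at 9.04 and 24.9 TPM. They rose by 2.03 (SE 0.32) and 2.06 (SE 0.41) on the log2 scale (limma adjusted p = 0.00598 and 0.0128). IFNL1 was at 190.4 and 109 TPM, against 48.9 and 72.8 TPM, and rose by 1.26 (SE 0.35, limma adjusted p = 0.0458). Without 7F8 replicate 1 the limma adjusted p was 0.145 for IFNB1, 0.0827 for IFNL2 and 0.054 for IFNL3, and without DMSO replicate 1 it was 0.115, 0.108 and 0.0751. IFNL2 also lost the call without 7F8 replicate 2 (0.0564).

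With the other compounds the ligands were not called. IFNB1 was at 15.7 and 19.4 TPM with 5G6 (log2 fold change 1.30, limma adjusted p = 0.0693) and 6.73 and 12.6 TPM with 6D7 (0.45, adjusted p = 0.519). IFNL3 and IFNL2 were lower with 6D7 than with 7F8, with log2 differences of -1.83 and -2.37 (limma adjusted p = 0.0358 for both). IFNL3 was at 15.1 and 16.9 TPM with 6D7 and IFNL2 at 8.98 and 16.1 TPM. At 4 h no ligand was called with 7F8, where IFNB1 was at 5.57 and 4.83 TPM, against 5.45 and 7.88 TPM with DMSO. The difference of the 7F8 effect between the hours was 2.11 for IFNB1 (SE 0.51, limma adjusted p = 0.298), not called. In none of the 6 ligands was replicate 1 above replicate 2 in all 8 groups.

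**Figure D5:**
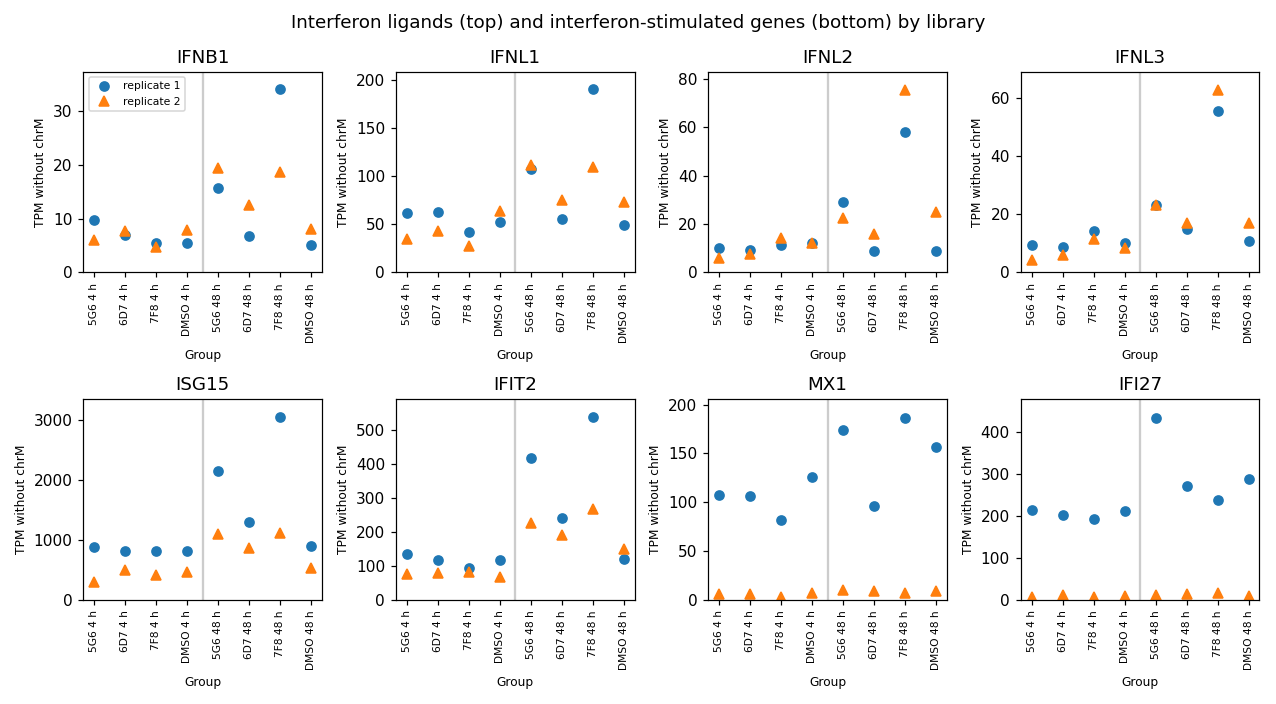
TPM without mitochondrial genes (vertical axes, linear) of 4 interferon ligands (top) and 4 interferon-stimulated genes (bottom) in each library, by group (horizontal axes) and replicate number (circles, 1; triangles, 2). IFNL2 and IFNL3 have their highest values with 7F8 at 48 h in both numbers, IFNL3 at 55.6 and 62.9 TPM, while MX1 and IFI27 separate by number.

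Of the receptor chains, IFNAR2, a chain of the type I receptor, was at 55.6 and 47.0 TPM with 7F8 at 48 h, against 23.4 and 24.5 TPM with DMSO, and rose by 1.06 (SE 0.23, limma adjusted p = 0.0182). It was 1 of 6 receptor chains called (8.79% of all tested genes were), and lost the call without 7F8 replicate 1 (limma adjusted p = 0.165) and without DMSO replicate 1 or 2 (0.12 and 0.0762). IFNAR1 was at 27.1 and 30.3 TPM with 7F8, against 15.0 and 23.4 TPM with DMSO (0.59, SE 0.24, limma adjusted p = 0.155). Of 8 kinases, STATs and inhibitors of signalling 0 were called in limma, with 2 at an unadjusted p below 0.05 (8.79% and 24.6% of all tested genes). JAK1 was at 105 and 122 TPM with 7F8, against 85.3 and 86.7 TPM with DMSO (0.39, limma adjusted p = 0.226), and TYK2 at 22.6 and 24.2 TPM, against 26.6 and 28.3 TPM (-0.22, adjusted p = 0.701). Of 16 nucleic acid sensors and adaptors 0 were called, with 3 at an unadjusted p below 0.05 (8.79% and 24.6% of all tested genes).

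Among the 48 further interferon-induced genes, 5 were called higher with 7F8 at 48 h and 0 lower (2.29% and 6.50% of all tested genes). APOL1, a secreted apolipoprotein that lyses trypanosomes, was at 364 and 164 TPM with 7F8, 128 and 123 TPM with 5G6 and 67.6 and 114 TPM with 6D7, against 28.2 and 32.2 TPM with DMSO. All 6 compound libraries of APOL1 were above both DMSO libraries, and it was called with each compound: 2.98 with 7F8 (SE 0.36, limma adjusted p = 0.00205), 2.02 with 5G6 (0.0144) and 1.51 with 6D7 (0.0343). Without any 1 of the 4 libraries compared, the call was lost with 5G6 (0.0553 to 0.142) and with 6D7 (0.0728 to 0.206), but not with 7F8. It was also lost with the libraries of that hour alone with 5G6 (0.0823) and 6D7 (0.116), and without the filter on low values with 6D7 (0.0678). The chemokine CXCL10 was at 22.1 and 17.7 TPM with 7F8, against 3.56 and 5.76 TPM with DMSO (1.90, SE 0.37, limma adjusted p = 0.0123). CXCL10 was also lower with 6D7 than with 7F8 (-2.08, limma adjusted p = 0.0364). CCL5 was at 2391 and 1762 TPM with 7F8, against 417 and 879 TPM with DMSO (1.76, SE 0.35, limma adjusted p = 0.0136). B2M, the light chain of MHC class I (1.37, limma adjusted p = 0.0175), and CXCL11 (1.58, limma adjusted p = 0.0415) were the others. Without 7F8 replicate 1 the adjusted p was 0.126 for CXCL10 and 0.138 for CCL5, and without DMSO replicate 1 0.109 and 0.119. CXCL10 and CCL5 are also driven by NF-kB in many cells.

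Marker lists of cell types differed between the groups at 48 h as well. The 7 leukocyte markers summed to 272 and 81.5 TPM with 7F8 at 48 h, 352 and 161 TPM with 5G6 and 281 and 149 TPM with 6D7, against 95.0 and 47.8 TPM with DMSO. Most of this was CD68, a lysosomal membrane protein that many cells make, while PTPRC and CD3E were at or near 0 as given above. The 6 epithelial markers summed to 5019 and 4639 TPM with 7F8, 8553 and 8097 TPM with 5G6 and 4448 and 7970 TPM with 6D7, against 8081 and 7497 TPM with DMSO. The part of either in the interferon genes was not tested.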

How the data were processed

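RNA from 16 A549 CD63-Nluc libraries was sequenced by the authors after polyA selection. The submitters' processing notes name STAR 2.6.1a, featureCounts 1.6.3, StringTie 2.0 and GRCh38, with no order or role. Per the file headers, each library has a gene abundance table. TPM values were deposited by the authors, and sum to nearly the same total in every library. FPKM values were deposited by the authors per length and aligned sequence. Coverage was deposited by the authors as unscaled mean read depth per gene, and with FPKM it gave the aligned bases (the most frequent ratio within a library). Read counts were not used, so the reads behind a value are unknown. Strandedness is not stated.

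TPM of rows with one gene name was summed, mitochondrial genes were dropped and the rest rescaled to that total. A gene entered the test if 2 or more libraries had it at 1 TPM or above. The test was limma 3.58.1 in R 4.3.3 on log2(TPM + 1), with a pseudocount of 1, which understates changes of low genes. One mean was fitted for each of the 8 groups, which left 8 residual degrees of freedom, and variances were moderated along their trend with expression (prior degrees of freedom 3.8 in the median). Two-sided p values had Benjamini-Hochberg adjustment over 15958 genes in each of 16 comparisons. With 2 libraries a group, a p reflects only how these samples vary, which may be partly technical. Tables and figures used Python 3.11.15, pandas 2.3.3, numpy 2.4.6 and matplotlib 3.10.9.

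The 39 genes, their roles and the further lists were chosen with earlier results of these data known. Library values are given for members called in a comparison with DMSO (up to 12), for STAT2, IRF9, IRF1, IRF7, ISG15, USP18, IFIT1, OAS1, MX1, IFITM3, BST2 and IFI27, and for the 6 called pathway genes with the smallest adjusted p with IFNAR1, IFNAR2, JAK1, TYK2 and IFNB1. A further gene of this rule is not reported here. Genes outside this rule are marked where they are named, or are the remaining called ones. Alternatives were median-of-ratios scaling (size factors 0.8534 to 1.18), mitochondrial genes kept, a pseudocount of 0.1, no filter, no variance trend, the libraries of 1 hour alone, a replicate block and leaving out each library. Coordinates are those of the deposited tables on GRCh38. Promoter windows are from RefSeq on GRCh38.p14.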

Additional observations from a re-analysis of the deposited data

How the results depend on the processing

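The number of the 39 genes called with 7F8 at 48 h, 1 as reported, was 2 with median-of-ratios scaling (1142 of all tested genes). It was 0 without the filter on low values (1209 of all genes in that fit) and without the variance trend (1284 of all). It was also 0 with the libraries of that hour alone (252 of all). It was 10 with a replicate block (9 higher, 1 lower) and 15 with the block and median-of-ratios scaling. With 1 library left out, the median log2 fold change of the 39 with 7F8 ran from -0.26 to 1.25. With 5G6 at 48 h, 0 as reported, the count was 4 with the block and 5 with the block and median-of-ratios scaling, and with 6D7 at 48 h it was 1 with the block, IFITM1 lower. With the block and median-of-ratios scaling 1 gene was called for 6D7 against 7F8 at 48 h (291 of all tested genes). In that setting 2 were called for the 7F8 effect at 48 h minus that at 4 h (35 of all). For 6D7 against 7F8 at 48 h, the median of the 39 ran from -1.26 to 0.28 with 1 library left out. The replicate numbers are not established as pairs: the labels give them no meaning, and there are 2 of them. Over all tested genes the differences between numbers correlated between groups at 0.0536 to 0.588 (28 pairs of groups). Among the 39 genes, 31 were higher in replicate 1 in all 8 groups. IFIT2 with 7F8 at 48 h kept its direction in all settings, with adjusted p from 0.0033 to 0.351: 0.0973 without the filter, 0.0587 without the trend, 0.0904 with that hour alone and 0.0491 with a pseudocount of 0.1. Of the values of named genes against DMSO, 10 were calls; of their 120 values under the alternatives 85 kept the call, 35 lost it and 0 reversed. Of 1608 alternative values of the 134 that were no calls, 21 became calls. Over all genes, the calls for 6D7 at 48 h numbered 953 as reported and 1899 with mitochondrial genes kept. Of the 15958 genes, the 48 h calls were 1709, 2000 and 2721 with the block, 1585, 2029 and 2358 with the block and median-of-ratios scaling, and 6, 7 and 252 with that hour alone (5G6, 6D7, 7F8). With 7F8 they numbered 1403 as reported, 65 without DMSO replicate 1 and 456 without DMSO replicate 2. With that hour alone, IFNB1, IFNL2, IFNAR2 and CCL5 also lost their calls with 7F8 (adjusted p = 0.0658, 0.0705, 0.0596 and 0.0717). IFNL1, B2M and CXCL11 were not recomputed gene by gene under the alternatives. Groups of 2 libraries limit what the test can show, and the reads behind low genes such as EPSTI1 and IFI44L are unknown. The cause of these differences was not tested.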
